A study of Mus musculus with 2 samples.

Results

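GABA and glycine are the fast inhibitory transmitters of the brain, and 30 genes of their synthesis, transport, receptors and synapses were followed here in the mouse hypothalamus, in Crtc1 knockout against wild-type animals. Members were the probe sets that the array's platform annotation paired with one of these gene symbols alone. Of the 45101 probe sets on the array, 69 belonged to 29 of the 30 genes, and the expression of Gabbr2 was not analysed here. Per the labels and the design text, both groups were 12-week-old males that had gone 18 h without food and then had food again for 6 h. Hypothalamic RNA of 3 Crtc1 knockout mice was combined on 1 array, and RNA of 3 wild-type mice on another, called the KO pool and the WT pool below. How the Crtc1 allele was made, and the strain, are not stated in the labels. Crtc1 helps the transcription factor CREB to switch on genes, and the study's title names energy balance and fertility as its subject.

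Inhibitory neurons make GABA from glutamate with glutamate decarboxylase, load it into vesicles and release it onto chloride channels of the GABA-A class or onto G protein-coupled GABA-B receptors. A GABA-A channel combines alpha and beta subunits with a gamma, delta, epsilon or theta subunit, and the choice of subunits sets where the channel sits and which drugs it binds. Glycine acts on a related family of chloride channels. In the hypothalamus, neurons of the arcuate nucleus that drive feeding are known to release GABA, and neurons that control reproduction to receive it.

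Signals are linear probe-set intensities. A probe set was taken as measured if its average log2 signal reached the median of all probe sets, a signal of 52.3. Values under the 30th percentile of an array were raised to it, 20.5 in the KO pool and 20.2 in the WT pool. By this rule 51 of the 69 probe sets and 25 of the 30 genes were measured. Each gene was read from the measured probe set of highest average log2 signal, called the brightest below. With 1 pooled array per genotype there is no test between genotypes and no replicate check, and no p-value is given. The one error open to measurement is the SD of the differences among a gene's measured probe sets, called the array error. It was 0.32 on the log2 scale for the dimmest measured probe sets (mean log2 signal under 7) and 0.16 for the brightest (above 10), and it holds no spread between mice. Every difference below is a log2 value, KO pool minus WT pool. Crtc1 itself read 85.1 in the KO pool against 631 in the WT pool by its brightest probe set, 7.42-fold lower, in the direction of the labels. In tissue RNA, fewer cells of a type and less RNA per cell cannot be told apart.

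Differences between the pools were small across the inhibitory genes, about as small as those of other genes of like signal. Of the 25 measured genes, 2 stood 1.2-fold or more above the WT pool in the KO pool, against 11.9% of all 11312 measured genes, and 0 were at least 1.2-fold lower, against 9.97% of all measured genes. With median centring, which turned the split of all genes to 8.73% higher and 14.6% lower, 2 members were higher and 1 lower by that much. None reached 1.5-fold by its brightest probe set in either direction, a size reached upward by 2.06% and downward by 1.44% of all measured genes. The median difference was -0.015 over the 25 members and 0.0041 over all measured genes. The SD of the differences was 0.15 over the members and 0.25 over all measured genes. The members were brighter, with a median log2 signal of 10.3 against 8.31 over all measured genes. Among the 3819 measured genes with a mean log2 signal of 9 or more, 3.38% were at least 1.2-fold higher and 4.82% at least 1.2-fold lower, and 2 and 0 of the 19 members in that range were. There the SD was 0.16 over the members and 0.16 over all genes. By sign, 12 members were higher and 13 lower. The difference exceeded the array error of its signal range in 5 members, 3 of them higher and 2 lower, against 25.2% of all measured genes in either direction.

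**Figure D1:**
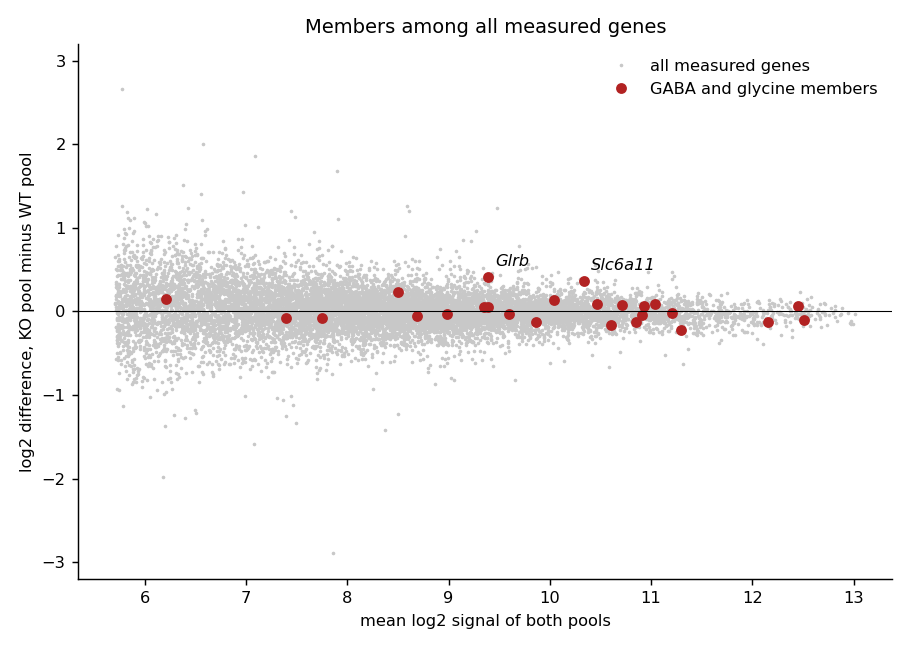
Log2 difference (KO pool minus WT pool, vertical axis) against the mean log2 signal of both pools (horizontal axis) for the 11312 measured genes in grey and the 25 measured members in red. The members lie close to the zero line over the whole signal range, with Glrb at 0.41 and Slc6a11 at 0.36 the farthest above it.

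The 2 members past 1.2-fold were Glrb, which encodes the beta subunit of the glycine receptor, and Slc6a11, which encodes a plasma membrane GABA transporter known from astrocytes. Glrb read 774 in the KO pool and 583 in the WT pool, 1.33-fold higher, a difference of 0.41 with an array error of 0.21. A dimmer Glrb probe set read 358 in the KO pool and 288 in the WT pool, a difference of 0.31 with an array error of 0.23. Both readings of Glrb thus exceeded the array error in the same direction, although both came from the same pair of RNA pools. Slc6a11 read 1468 in the KO pool and 1142 in the WT pool, 1.29-fold higher, a difference of 0.36 with an array error of 0.16. That value rests on 1 probe set, because a second read 2.4 in the KO pool and 13 in the WT pool, under the floor on both arrays.

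The stretches upstream of these 2 genes are shown because CREB, the partner of Crtc1, is known to bind the letters TGACGTCA and, more weakly, the half-site TGACG. They are the 250 bases before the start site in RefSeq's annotation of build GRCm38.p6, read 5′ to 3′ on the gene's strand. Glrb lies on the minus strand at chr3:80913661-80913910, and Slc6a11 on the plus strand at chr6:114130991-114131240. Neither stretch holds the full site or the half-site on either strand, so no letters are capitalised.
Glrb: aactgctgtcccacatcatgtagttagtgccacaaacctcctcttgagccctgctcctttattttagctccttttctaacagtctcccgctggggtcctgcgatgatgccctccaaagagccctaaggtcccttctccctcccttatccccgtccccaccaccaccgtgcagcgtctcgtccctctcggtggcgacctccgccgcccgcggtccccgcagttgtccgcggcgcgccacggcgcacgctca
Slc6a11: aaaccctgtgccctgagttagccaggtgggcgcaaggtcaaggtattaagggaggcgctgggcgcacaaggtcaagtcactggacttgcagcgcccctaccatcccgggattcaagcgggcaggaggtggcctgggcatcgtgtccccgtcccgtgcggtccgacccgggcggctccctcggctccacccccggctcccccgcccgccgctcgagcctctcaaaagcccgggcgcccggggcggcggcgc

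Promoter windows of 250 bases before to 50 bases after a start site were scanned for 25 member genes, 28 windows in all. The full site TGACGTCA, which reads the same on both strands, occurred in 0 of these 28 windows and in 1.79% of all 32851 windows of the table. The half-site TGACG on either strand, which every full site also contains, occurred in 4 of the 25 member genes (16%) and in 23.0% of all genes with a window. The 4 genes were Gad2, Gabarapl2, Nlgn2 and Glrb. Their matches are printed as 30-base windows with the half-site in capitals, written CGTCA where it runs on the other strand. The windows lie at chr2:22622282-22622311 (plus strand) for Gad2, chr8:111940561-111940590 (plus) for Gabarapl2, chr11:69837768-69837797 (minus) for Nlgn2 and chr3:80913628-80913657 (minus) for Glrb.
Gad2: ccatttcccttcCGTCActctctcatctcc
Gabarapl2: cccagccacctaCGTCAgtctccattccca
Nlgn2: gcggccgcgcggTGACGcgcggggctgctg
Glrb: gcggagcaggcgCGTCAaactcggcggcgg
The match in Gad2 begins 33 bases before the start site and that in Gabarapl2 130 bases before it. That in Nlgn2 straddles the start site, and that in Glrb begins 15 bases past it. By their brightest probe sets Glrb was higher in the KO pool, while Gad2, Gabarapl2 and Nlgn2 were lower, as were 13 of all 25 measured members. The differences of Gad2 and Nlgn2 were within the array error of 0.16, and a dimmer Gabarapl2 probe set was higher by 0.13. A match is a description of letters and not of binding.

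**Figure D2:**
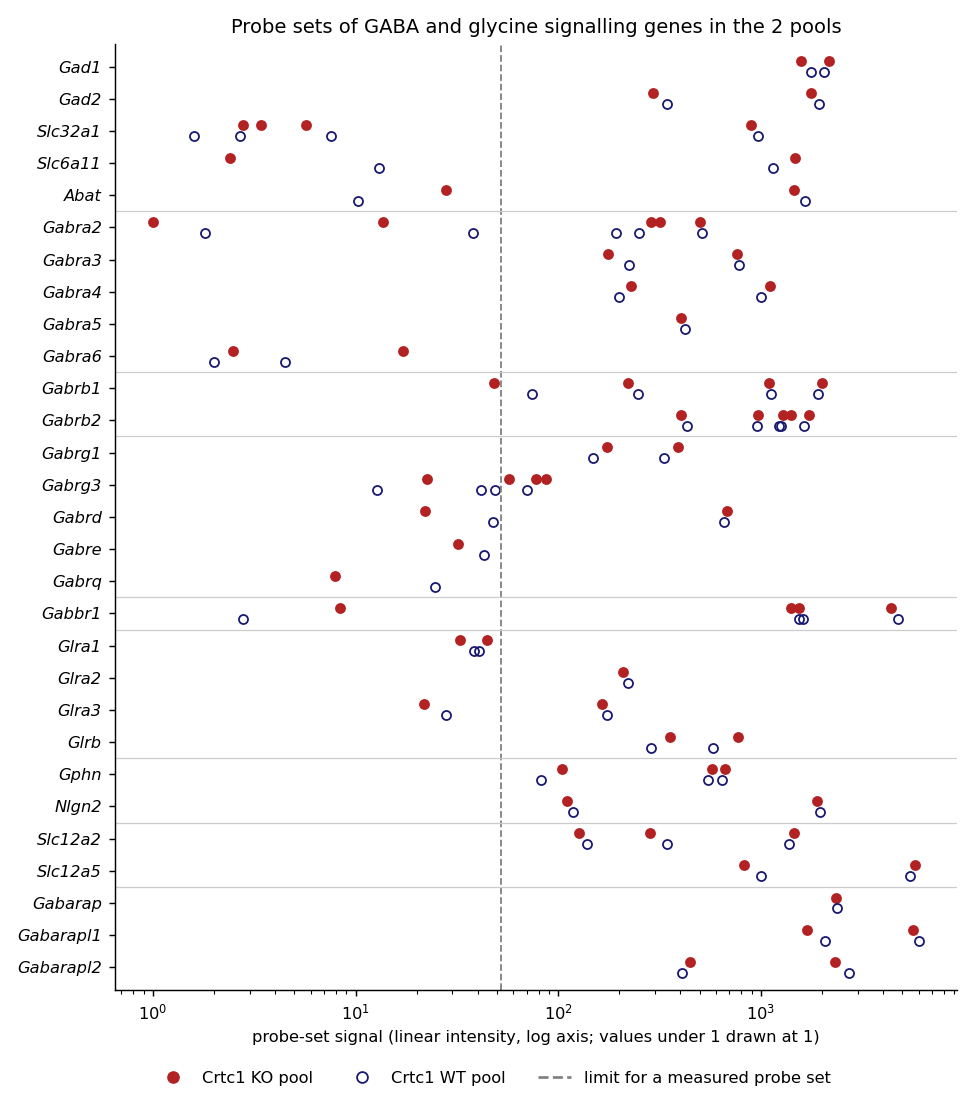
Signal (horizontal axis, linear intensity on a log axis) of every probe set of the 29 genes, with filled red points for the Crtc1 KO pool, open dark points for the Crtc1 WT pool and a dashed line at the limit for a measured probe set. Genes are grouped by role, separated by grey lines, and the points of both pools lie near each other for most measured probe sets, with the widest gap, 1.78-fold, in Gabrg3, while Gabra6, Gabre, Gabrq and Glra1 stay left of the line.

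The genes that make and pack GABA were clearly measured in both pools. Gad1, one of the glutamate decarboxylase genes, read 2169 in the KO pool and 2042 in the WT pool by its brightest probe set. A second Gad1 probe set went the other way, with 1578 in the KO pool and 1759 in the WT pool, and both differences, 0.087 and -0.16, were within the array error of 0.16. Gad2, the decarboxylase gene concentrated at nerve terminals, was lower by both of its probe sets. It read 1770 in the KO pool against 1931 in the WT pool, and 295 against 344 by the dimmer probe set. These Gad2 differences of -0.13 and -0.22 did not exceed their array errors of 0.16 and 0.23. Slc32a1, which encodes the vesicular transporter for GABA and glycine, read 891 in the KO pool and 971 in the WT pool, a difference of -0.12 within its array error of 0.21. Its 3 other probe sets were under the floor on both arrays. Abat encodes GABA transaminase, which breaks GABA down. It read 1464 in the KO pool and 1645 in the WT pool, a difference of -0.17 that passed its array error of 0.16 narrowly. A second Abat probe set, under the limit for a measured probe set, went the other way, with 28 in the KO pool and 10.3 in the WT pool.

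Markers of GABA neurons, such as Dlx genes and interneuron peptides, were lower in 5 and higher in 3 of 8 measured genes. Their median was -0.12, with 1 gene past 1.2-fold each way. The higher one was Dlx1, at 0.55 (array error 0.26), and the lower one Dlx2, at -0.27 (array error 0.32). Dlx5 was higher by 0.16, within its array error of 0.32, and Pvalb by 0.024, within 0.16. Sst, at -0.23, and Calb2, at -0.19, were lower, both beyond the array error of 0.16. Npy, at -0.13 (array error 0.16), and Lhx6, at -0.11 (array error 0.26), were lower within it. Calb2 is also counted in the thalamus list below. The summed signal of this marker list was 6347 in the KO pool and 6928 in the WT pool, over a range of 21.8 to 1875 and of 7.5 to 2199 per gene, and no gene of the list was under the floor in both. The part of these markers in the values of Gad1, Gad2, Slc32a1 and Abat was not tested. Pan-neuronal markers summed to 38653 in the KO pool and 39277 in the WT pool, with 0 of 12 past 1.2-fold. Astrocyte markers are given beside Slc6a11. They summed to 21943 in the KO pool and 21386 in the WT pool, each gene between 590 and 6649 and between 550 and 6659, with a median difference of 0.020. Of the 10 markers 7 were higher, 1 of them by at least 1.2-fold, and 0 were lower by that much. The 1 past 1.2-fold was Aqp4, at 1388 in the KO pool and 1100 in the WT pool. Its difference was 0.34 with an array error of 0.16, near that of Slc6a11. None of the 10 astrocyte markers was under the floor, and their part in the Slc6a11 value was not tested.

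Of 12 GABA-A subunit genes, 9 were measured. Among the alpha subunits, Gabra2, Gabra3, Gabra4 and Gabra5 were measured and Gabra6 was not. Gabra6, a subunit known from cerebellar granule cells, read 17.1 and 2.5 by its 2 probe sets in the KO pool and 2.0 and 4.5 in the WT pool, all under the floor. Cbln3 and Fat2, further granule cell markers, were under the floor as well, while others of that list, such as Zic1 at 901 in the KO pool and 849 in the WT pool, were not. Gabra4, a subunit of extrasynaptic channels in the thalamus and striatum, read 1105 in the KO pool and 1004 in the WT pool. Its dimmer probe set read 230 in the KO pool and 200 in the WT pool, so both were higher, by 0.14 (array error 0.16) and 0.20 (array error 0.26). Gabra3 was lower by both probe sets. It read 766 in the KO pool against 785 in the WT pool (-0.035), and 176 against 225 by the dimmer one (-0.36, beyond its array error of 0.26). Gabra5, a subunit known for extrasynaptic channels of the hippocampus, read 405 in the KO pool and 421 in the WT pool, a difference of -0.056 by its 1 probe set.

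Gabra2, a subunit of synaptic channels of the forebrain, had probe sets that disagreed. Its brightest read 500 in the KO pool and 511 in the WT pool, a difference of -0.032. A second read 287 in the KO pool and 251 in the WT pool, a difference of 0.19 within its array error of 0.23. The third read 318 in the KO pool and 194 in the WT pool, 1.64-fold higher, a difference of 0.71 with an array error of 0.26. The mean over these 3 probe sets was 0.29, so the value of Gabra2 depended on the probe set chosen. Further Gabra2 probe sets, under the limit for a measured probe set, read 13.6 and 0.6 in the KO pool and 38.1 and 1.8 in the WT pool.

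The beta subunits form the GABA site together with the alpha subunits, and both measured beta genes were nearly level by their brightest probe sets. Gabrb1 read 1995 in the KO pool and 1909 in the WT pool by its brightest probe set, a difference of 0.063. Its 3 dimmer probe sets were lower, by -0.031, -0.17 and -0.62, the last from readings of 48.0 in the KO pool and 74.0 in the WT pool. That last difference was beyond its array error of 0.32, and the mean over all measured Gabrb1 probe sets was -0.19. Gabrb2 was seen by 5 measured probe sets, with differences from -0.094 to 0.19. The brightest read 1721 in the KO pool and 1629 in the WT pool, a difference of 0.079. Of the 5, 4 were higher, and 1 of these, at 1407 in the KO pool and 1230 in the WT pool, passed its array error of 0.16.

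Of the subunits that complete the channel, Gabrg1, Gabrg3 and Gabrd were measured, and each was higher in the KO pool by its brightest probe set. Gabrg1, a gamma subunit also known from glia, read 391.9 in the KO pool and 334 in the WT pool, 1.17-fold higher, a difference of 0.231 against an array error of 0.229. Its second probe set read 174 in the KO pool and 149 in the WT pool, nearly the same difference, 0.22, with an array error of 0.26. Gabrg3 was dim, and all 4 of its probe sets were higher in the KO pool. It read 77.8 and 86.7 by its measured probe sets in the KO pool and 70 and 48.6 in the WT pool, differences of 0.15 and 0.84 with an array error of 0.32. The probe sets of Gabrg3 under the limit read 57.5 and 22.5 in the KO pool and 41.5 and 12.8 in the WT pool. Gabrd, whose product gives extrasynaptic channels sensitive to neurosteroids, read 685 in the KO pool and 658 in the WT pool, a difference of 0.058. A second Gabrd probe set was under the limit, with 22.1 in the KO pool and 47.5 in the WT pool.

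Gabre and Gabrq, which encode the epsilon and theta subunits, had 1 probe set each and neither was measured. Gabre read 32 in the KO pool and 43.1 in the WT pool, and Gabrq 7.9 in the KO pool and 24.6 in the WT pool. These signals do not show that the transcripts are absent. Signals of different probe sets also depend on the probes, so the subunits cannot be ranked by amount. By the gene order of assembly GRCm38.p6, Gabrg1, Gabra2, Gabra4 and Gabrb1 lie side by side on chromosome 5 with 1 other protein-coding gene among them. By their brightest probe sets 3 of these 4 were higher and Gabra2 was lower, none by 1.2-fold.

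**Figure D3:**
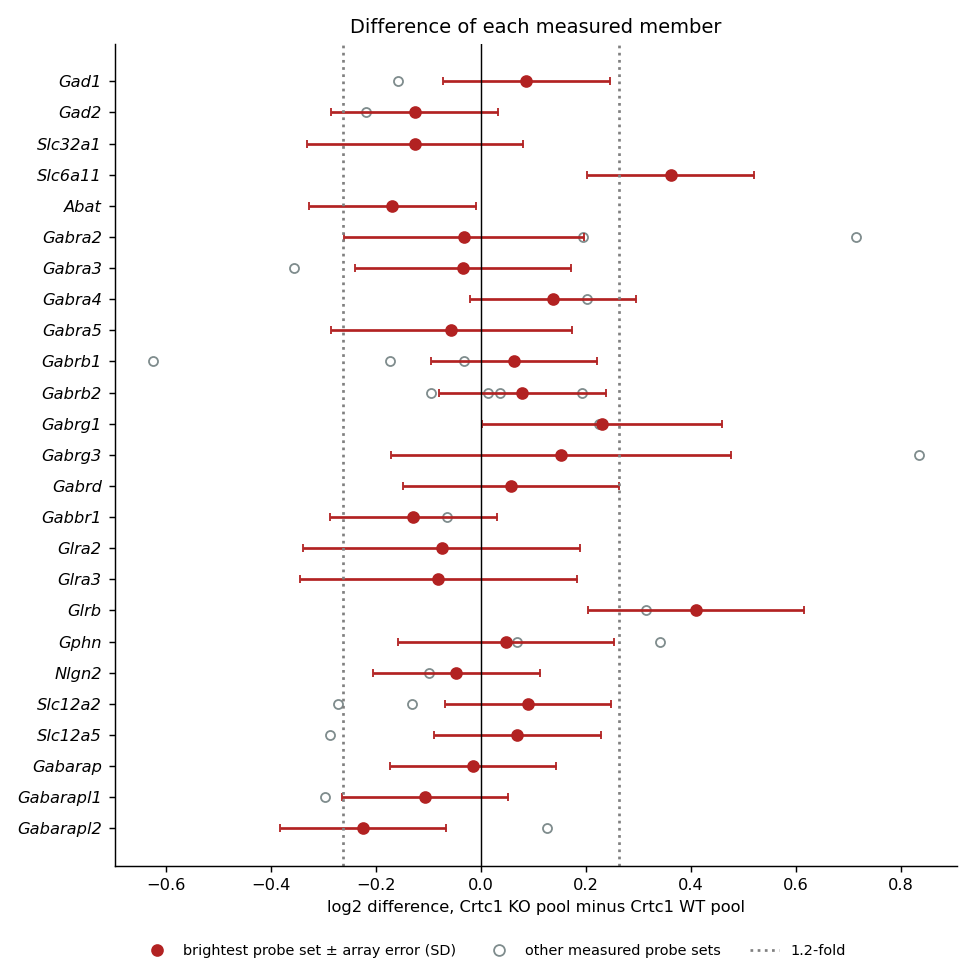
Log2 difference (KO pool minus WT pool, horizontal axis) of the 25 measured members, with the brightest probe set in red, bars of 1 array error on each side, other measured probe sets as open grey points and dotted lines at 1.2-fold. Glrb and Slc6a11 are the members whose red points lie past a dotted line, and the open points of Gabra2, Gabrb1 and Gabrg3 lie far from their red points.

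Gabbr1, which encodes the ligand-binding subunit of the GABA-B receptor, was slightly lower by each of its 3 measured probe sets. The brightest read 4371 in the KO pool and 4777 in the WT pool, a difference of -0.13. The others read 1552 and 1411 in the KO pool and 1622 and 1541 in the WT pool, differences of -0.064 and -0.13. None of these exceeded the array error of 0.16.

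For the glycine receptor, the higher Glrb signal was not accompanied by higher signals of its measured alpha partners. Glra2, known as the main alpha subunit of the immature brain, read 209 in the KO pool and 220 in the WT pool, a difference of -0.075. Glra3 read 164 in the KO pool and 173 in the WT pool, a difference of -0.080, and both were within the array error of 0.26. A second Glra3 probe set, under the limit for a measured probe set, read 21.7 in the KO pool and 27.9 in the WT pool. Glra1, the adult subunit of spinal cord and brainstem, was not measured. It read 44.5 and 32.6 by its 2 probe sets in the KO pool and 38.6 and 40.8 in the WT pool. Glrb binds gephyrin, the scaffold protein under inhibitory synapses. Gphn, its gene, was higher by all 3 probe sets, but its brightest read 664 in the KO pool and 642 in the WT pool, a difference of 0.048. A second read 576 in the KO pool and 549 in the WT pool (0.069), and the dimmest 104 in the KO pool and 82.0 in the WT pool (0.34, array error 0.32). Nlgn2, a postsynaptic adhesion protein of inhibitory synapses, read 1900 in the KO pool and 1962 in the WT pool, a difference of -0.046.

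Chloride cotransporters decide whether opening these channels inhibits a neuron. Slc12a5, which encodes the chloride extruder of mature neurons, read 5741 in the KO pool and 5471 in the WT pool by its brightest probe set, a difference of 0.070. Its second probe set read 823 in the KO pool and 1005 in the WT pool, a difference of -0.29 beyond its array error of 0.21. Slc12a2, which encodes a chloride importer, read 1459 in the KO pool and 1371 in the WT pool, a difference of 0.090. Its dimmer probe sets read 284 and 127 in the KO pool and 343 and 139 in the WT pool, differences of -0.27 and -0.13. The first of these was beyond its array error of 0.23, the second within 0.26. Neither gene therefore had a settled direction.

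The GABARAP family was named for a protein that binds GABA-A receptors, and its members are ubiquitin-like proteins of receptor trafficking and autophagy. All 3 genes were lower by their brightest probe sets, 0 of them by 1.2-fold. Gabarap read 2348 in the KO pool and 2372 in the WT pool, a difference of -0.015. Gabarapl1 read 5612 in the KO pool and 6042 in the WT pool (-0.11), and 1687 in the KO pool and 2073 in the WT pool by its other probe set (-0.30, array error 0.16). The brighter Gabarapl1 probe set is of a type that can match several transcripts. Gabarapl2 read 2320 in the KO pool and 2710 in the WT pool, a difference of -0.22 beyond its array error of 0.16, and its dimmer probe set was higher, at 448 in the KO pool and 411 in the WT pool. Gabarapl2 and Glra3 are on chromosome 8, which also carries Crtc1, at distances of 443 and 91 protein-coding genes from it.

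Agreement among probe sets gives the only repeat reading of these pools. Of the 17 members with at least 2 measured probe sets, 10 had all of them on one side, 5 higher and 5 lower, and 7 were mixed, against 42.5% of one sign among all 5199 measured genes with several probe sets. That share was matched to the members neither for signal nor for the number of probe sets per gene. The 5 higher in every reading were Gabra4, Gabrg1, Gabrg3, Glrb and Gphn. The 5 lower in every reading were Gad2, Gabra3, Gabbr1, Nlgn2 and Gabarapl1. All 51 measured probe sets had a median of -0.031, with 24 higher and 27 lower.

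**Figure D4:**
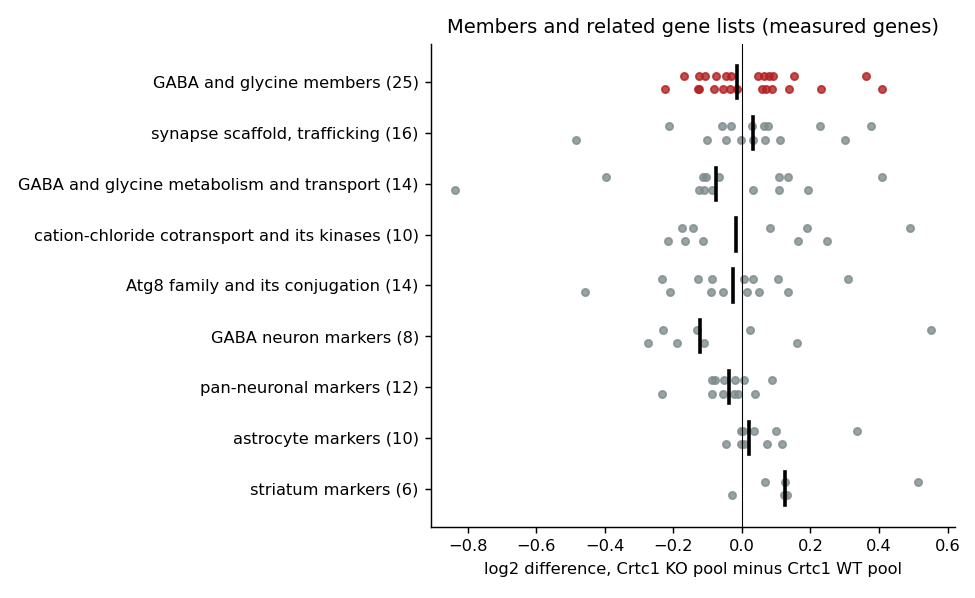
Log2 difference (KO pool minus WT pool, horizontal axis) of each measured gene, as points, for the members (red), for 4 related gene lists and for markers of GABA neurons, neurons, astrocytes and striatum (grey), with the number of genes in parentheses and the median as a black bar. Over the lists drawn, the medians run from -0.12 for GABA neuron markers to 0.12 for striatum markers, and the members' median is -0.015.

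Further genes of the same pathways are set against the same shares of all measured genes, 11.9% at least 1.2-fold higher and 9.97% lower. Of 20 genes for synapse scaffolds, receptor trafficking and GABA-B auxiliary subunits, 16 were measured, with 2 at least 1.2-fold higher and 1 at least 1.2-fold lower, and a median of 0.031. Of 19 genes of GABA and glycine metabolism and transport, 14 were measured, 1 at least 1.2-fold higher and 2 lower, with a median of -0.076. The one measured gene of these pathway lists past 1.5-fold was Shmt1, a serine hydroxymethyltransferase that interconverts serine and glycine, at 47.1 in the KO pool and 84.1 in the WT pool, a difference of -0.84 with an array error of 0.32. Slc6a5 and Slc6a12 were under the floor in both pools. Of 14 genes of cation-chloride cotransport and its kinases, 11 were matched to a probe set by symbol and 10 of these were measured. Of the 10, 1 was at least 1.2-fold higher and 0 lower, with a median of -0.016. Car2 and Car7 of this list were entered under other symbols and are missing from these counts. Both were measured, with differences of -0.062 and -0.065. All 14 genes of the Atg8 family and its conjugation were measured, 1 at least 1.2-fold higher and 1 lower, with a median of -0.025.

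Hypothalamic genes and genes of neighbouring tissues were read beside the tissue label. Pmch, which encodes melanin-concentrating hormone, read 3341 in the KO pool and 3498 in the WT pool, and Hcrt, which encodes orexin, 817 in the KO pool and 883 in the WT pool. Of the 12 hypothalamic markers 11 had a probe set of their own, and these summed to 7457 in the KO pool and 6891 in the WT pool. Sim1, Nkx2-1, Nr5a1 and Hmx2 were not measured. Sim1 read 36.4 in the KO pool and 16.1 in the WT pool, Nkx2-1 36 and 19.6, and Nr5a1 8.8 and 51.5. Hmx2 was under the floor in both pools. The other 7 were measured, 2 of them at least 1.2-fold higher and 1 lower. The higher ones were the vasopressin gene Avp, at 1690 in the KO pool and 1149 in the WT pool, and the oxytocin gene Oxt, at 969 in the KO pool and 695 in the WT pool. The lower one was Pomc, the melanocortin precursor gene, at 136 in the KO pool and 174 in the WT pool. Striatum markers were higher in 5 of 6 measured genes, with a median of 0.12 and summed signals of 3982 in the KO pool and 3738 in the WT pool. All 8 thalamus markers were measured, 4 higher and 4 lower, with 0 at least 1.2-fold higher and 1 at least 1.2-fold lower. Their median was -0.026, and they summed to 8912 in the KO pool and 9260 in the WT pool. Per gene the thalamus markers ran from 57.1 to 2539 in the KO pool and from 61.4 to 2794 in the WT pool. Some thalamus markers were thus bright in both pools, and the share of each tissue was not measured. Microglia markers were higher in 6 of 7 measured genes, 3 of them at least 1.2-fold, with a median of 0.24 and summed signals of 3849 in the KO pool and 3278 in the WT pool. Trem2, a microglial receptor gene, read 84.4 in the KO pool and 52.1 in the WT pool, 1.62-fold higher. Endothelial markers had 2 of 6 genes at least 1.2-fold higher and 1 lower, with a median of 0.073 and summed signals of 1072 in the KO pool and 928 in the WT pool. The 4 glutamate neuron markers had a median of 0.18, with 1 at least 1.2-fold higher and 1 lower, and summed to 7300 in the KO pool and 7492 in the WT pool. The higher one, Neurod6, read 168 in the KO pool and 107 in the WT pool, 1.57-fold higher. Of the granule cell list, Pax6 read 47.1 in the KO pool and 78.9 in the WT pool, 1.68-fold lower. The part of dissection and of cell make-up in the values of Glrb, Slc6a11, Gabrg1 and the other members was not tested.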

How the data were processed

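Per the labels' protocols, 30 ug of total RNA gave the biotin-labelled cRNA, and per the design text each array held RNA of 3 mice. The deposited values are linear probe-set intensities. Their mean without the lowest and highest 2% was 200.0 on both arrays, which points to a scale factor per array. Neither the scaling nor the summarising algorithm is stated in the labels. The medians were 54.4 in the KO pool and 52.2 in the WT pool, 0.060 apart on the log2 scale, and the deposited scaling was kept. The 64 control probe sets were left out. Of the other 45037, GEO's platform annotation gave 34945 a single gene, 932 more than one and 9160 none. Symbols were updated by Entrez ID through RefSeq's table of GRCm38.p6, where 34741 matched. Probe sets with more than one gene were not used.

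Calculations used Python 3.11.15 with pandas 2.3.3 and statsmodels 0.14.6, and recovered known differences in simulated data, where the array error came out somewhat high for bright probe sets. Every member is named, and measured genes of other lists where at least 1.5-fold apart or missed by symbol. Some further markers, chosen after their values were seen, are named too. Promoter stretches are given for the members past 1.2-fold, and the short windows were chosen by their match. The promoter windows of 1 member are not reported here, and Abat, Slc12a2, Glra1 and Gabrd were not scanned. Members and lists were chosen with earlier results of these data known. The comparison within a mean log2 signal of 9 or more was added after seeing the data. Alternatives were median centring, quantile normalization, a loess fit of span 0.3, a lower (10th percentile) and a higher (50th percentile) floor, a pseudocount of 16, other filters, averaged probe sets and omission of probe sets with _s_at or _x_at IDs. The number of arrays limits the precision.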

Additional observations from a re-analysis of the deposited data

How the results depend on the processing

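Under the 10 alternatives, 17 of the 25 measured members kept one sign wherever they were measured. Glrb stayed between 0.35 and 0.42 and Slc6a11 between 0.30 and 0.38, so both stayed past 1.2-fold in the KO pool. The other floors, the other filters and the omission of _s_at and _x_at probe sets left both values unchanged. Averaging could not move Slc6a11, which had 1 measured probe set. For these bright genes such alternatives are therefore no check. No member reached 1.5-fold under any of them. The number at least 1.2-fold higher was 2 except with averaged probe sets, where it was 4, the additions being Gabra2 at 0.29 and Gabrg3 at 0.49. The number at least 1.2-fold lower was 0 except in 3 alternatives, where it was 1. With median centring that gene was Gabarapl2 at -0.28, without probe sets ending in _s_at or _x_at it was Gabarapl1 at -0.30, and with dim probe sets kept in it was Gabre at -0.43. Averaging probe sets also put Gabrb1 at -0.19, Slc12a2 at -0.10 and Slc12a5 at -0.11. Median centring, which shifted all genes by 0.060, gave 10 members higher and 15 lower, where the deposited scaling gave 12 and 13, and the members' median ran from -0.075 to 0.0058 over the alternatives. No paired analysis was possible because each genotype had 1 pooled array. Signal over background limits Gabra6, Gabre, Gabrq, Glra1 and Gabrg3, whose ratios are noisy.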
